A study of Rattus norvegicus with 6 samples.

Results

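The H4K8la peaks of cultured rat tenocytes given 20 mM lactate were compared with those of untreated tenocytes, region by region across the genome. All peaks of the 2 deposited H4K8la lists were taken, 61347 in the control library and 42787 in the lactate library, that is 104134 of the 315825 peaks in the 6 lists of the series. A peak overlapping a peak of the other list by at least 1 bp is called shared, and the rest are called control-only or lactate-only. Positions are on build rn7. Tenocytes are the fibroblast-like cells of tendon. Both libraries came from wild-type cells of tendon grown in the same medium, and each was made by CUT&Tag with an antibody against H4K8la. They differ in the treatment entry of the labels, none in one and 20 mM lactate in the other. The labels used here give neither the length of the treatment nor the form of the lactate. The free-text protocol names 20 mM lactate for the control too, so the groups rest on the sample titles and the treatment entry. There was 1 library per condition and no RNA or protein in the files, so neither the cell type nor the treatment could be checked against markers, and no difference between the libraries has a replicate check or a p-value.

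H4K8la is a lactyl group on lysine 8 of histone H4, in the flexible tail that leaves the nucleosome core. Lactylation draws on lactate, the end product of glycolysis, which cells both make and take up. The same lysine can carry an acetyl group instead, a modification known from active promoters and enhancers. In CUT&Tag an antibody brings a transposase to the marked chromatin, and a peak is a stretch where the released fragments pile up above their surroundings. A peak list of this kind shows where the mark was called, not how much of it a cell carries.

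Fewer H4K8la peaks were called with lactate. The gap was wider for strong peaks, as ranked by the q values of their own library. It was also wider for peaks of high local background, the peak caller's value for the surroundings. In most shared regions the summit and the local background, both over the genome-wide level, were lower with lactate. Over their own local background, shared summits stood nearly as high with lactate as in control, counting only regions called in both libraries. Local background was recovered from the peak values, and whether IgG entered it is not stated. Without IgG it would hold fragments of the same H4K8la library. In windows of the genome without any H3K9la peak the direction was the opposite, with more H4K8la peaks called with lactate.

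The lists hold no read totals. Depth was instead inferred from the genome-wide background, the average fragment coverage of a base, as recovered from the peak values. This background was 1.32 in control and 1.55 with lactate, so the lactate library was taken as 1.18 times as deep. The summit pileup, the number of fragments over the highest point of a peak, had a median of 13 in control and 12 with lactate and ranged from 6 to 160 and from 7 to 219. The narrowest peak was 284 bp in control and 301 bp with lactate, so 4.82% of the control peaks were narrower than the narrowest lactate peak. All intervals given are 95% intervals for counting error only.

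Of the control peaks 43184 had no lactate partner, 70.4% of that list, and 24579 lactate peaks had no control partner, 57.4% of that list. The log2 ratio of lactate-only to control-only peaks was −0.81 (interval −0.84 to −0.79). Among peaks with −log10 q of at least 5 there were 7163 control-only and 1379 lactate-only peaks, a log2 ratio of −2.38 (−2.46 to −2.29). With the threshold at 10 there were 510 and 33, a log2 ratio of −3.95 (−4.46 to −3.44). The deficit of lactate-only peaks thus widened up to this threshold. The q values were set within each library, so a threshold need not be equally strict in both lists. At 20 only 5 and 1 were left, a log2 ratio of −2.32 with an interval from −5.01 to 0.37.

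Partners were found more often for strong peaks in both lists. Among control peaks with −log10 q under 2, 6.69% (6.07 to 7.36) were shared, against 28.4% (27.5 to 29.4) between 4 and 5 and 85.3% (84.1 to 86.5) between 10 and 15. Among lactate peaks the same bins gave 15.7% (14.8 to 16.7), 60.3% (58.9 to 61.7) and 97.3% (96.2 to 98.1). In the same bin of −log10 q a lactate peak thus had a partner more often than a control peak, up to the bin from 15 to 20. Since q was set within each library, equal −log10 q need not mean equal evidence. The control list also offers more peaks to overlap. From 20 on both lists were shared almost entirely, with 5 control-only peaks of 440 and 1 lactate-only peak of 99.

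**Figure D1:**
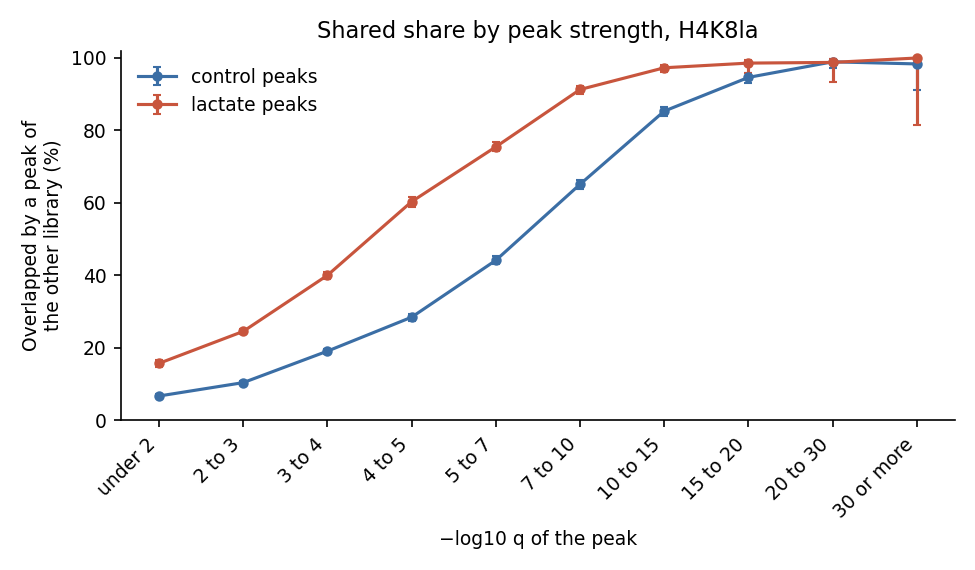
Share of H4K8la peaks overlapped by at least 1 bp by a peak of the other library (vertical axis, percent) in bins of the peak's own −log10 q (horizontal axis), with Wilson 95% intervals, control in blue and lactate in red. The lactate curve lies above the control curve from 15.7% against 6.69% in the weakest bin until the curves meet at −log10 q of 20 or more.

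Shared peaks were wider than condition-only peaks in both libraries. The median width of shared peaks was 748 bp (741 to 756) in control and 582 bp (577 to 586) with lactate, and that of control-only and lactate-only peaks 437 bp (434 to 439) and 422 bp (420 to 424). Of the shared control peaks 28.6% were at least 1000 bp wide, against 11.4% of the shared lactate peaks, 3.68% of the control-only and 0.749% of the lactate-only peaks. Wide peaks without a partner were mostly in the control list, 1590 against 184. That list also held more peaks of this width in all, 6783 against 2253, or 11.1% and 5.27% of the lists.

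The fold of a peak is its summit over the local background. It had a median of 4.40 (4.38 to 4.42) in shared control peaks, 4.13 (4.11 to 4.14) in shared lactate peaks, 3.74 (3.73 to 3.75) in control-only and 3.68 (3.68 to 3.70) in lactate-only peaks. The 2 condition-only classes thus differed by little in fold and width. They differed more in −log10 q, with a median of 3.13 (3.11 to 3.15) in control-only and 2.60 in lactate-only peaks. Of the lactate-only peaks 64.0% had a −log10 q under 3, and of the control-only peaks 47.2%.

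**Figure D2:**
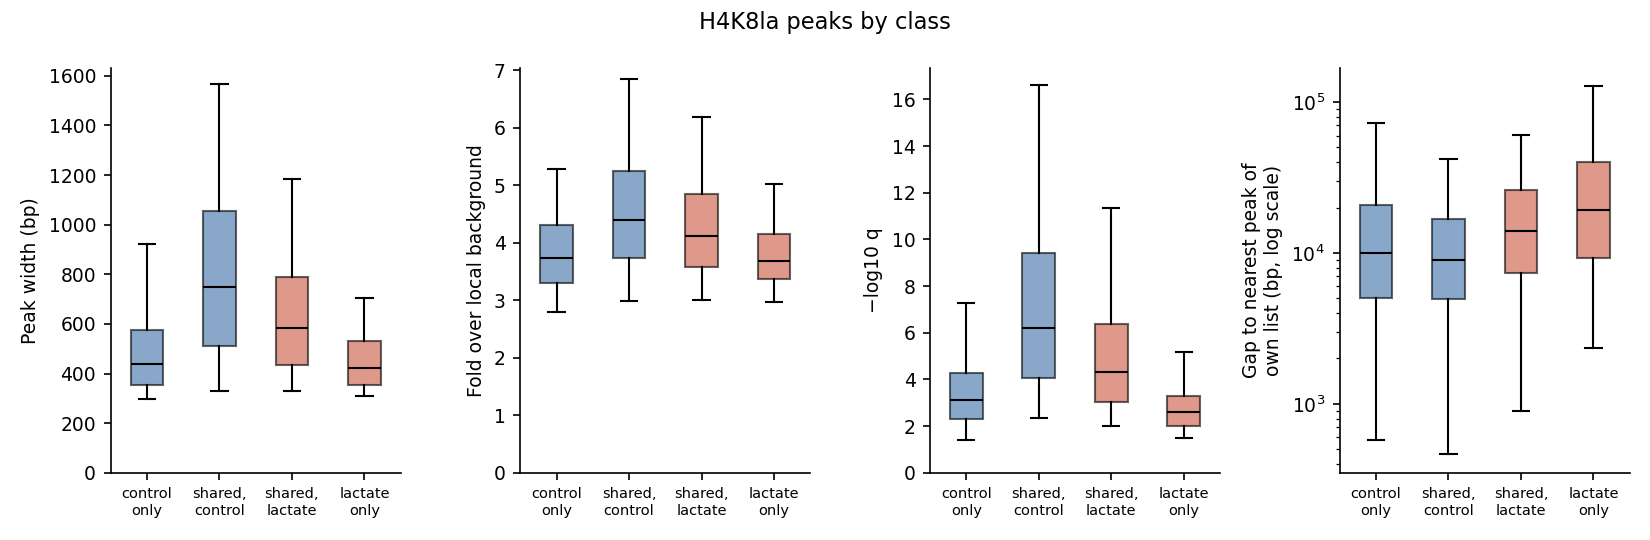
Width, fold over local background, −log10 q and the gap to the nearest peak of the same list (log scale) for control-only, shared and lactate-only H4K8la peaks, control in blue and lactate in red. Boxes span the quartiles with the median as a line and whiskers run from the 5th to the 95th percentile of peaks; shared peaks are the widest and strongest, and lactate-only peaks have the longest gaps (median 19326 bp).

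Shared peaks were also the wider ones at equal strength. Among control peaks of −log10 q from 5 to 7, shared peaks had a median width of 765 bp and control-only peaks one of 564 bp. Lactate peaks of that strength had 662 and 537 bp. Their folds ran the other way, with 4.40 in shared and 4.64 in control-only peaks, and 4.68 in shared and 5.15 in lactate-only peaks. At equal −log10 q, condition-only peaks were thus narrower, with a higher fold over a lower local background.

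Summits lay near the middle of the peaks. The median distance from peak start to summit was 335 bp in shared control and 275 bp in shared lactate peaks, 204 bp in control-only and 191 bp in lactate-only peaks. As a position along the peak, the medians were 48.4%, 48.2%, 47.0% and 45.6% of the width. The summit lay in the central 50% of the width in 67.1% (66.4 to 67.8) of the shared control peaks and 62.0% (61.3 to 62.7) of the shared lactate peaks. In control-only peaks the share was 57.7% (57.3 to 58.2) and in lactate-only peaks 53.4% (52.8 to 54.0). Off-centre summits were thus most frequent in lactate-only peaks, where 18.3% lay in the outer 10% at either end, against 6.88% in shared control peaks.

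Shared peaks formed 18390 overlapping pairs, of which 17581 joined 1 peak of each list. The paired summits were 167 bp apart in the median (163 to 170), and 21.6% of the pairs had them within 50 bp. Among the 979 pairs with −log10 q of at least 10 in both libraries the median distance was 73 bp (63 to 83), and 43.0% lay within 50 bp. In 44.0% of all pairs the shorter peak lay wholly inside the other, and in 88.9% at least 50% of it was covered. Of the control peaks 226 spanned more than 1 lactate peak, and of the lactate peaks 181 spanned more than 1 control peak. The control peak with the most partners, 3, lay on chromosome 13 from 84979442 to 84982288. It was 2847 bp wide, with a fold of 4.02 over a local background 6.60 times the genome-wide one. A lactate peak of 2202 bp on chromosome 1 from 205608930 to 205611131 (fold 4.61) also covered 3 control peaks.

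In these pairs the lactate library had the lower summit and the lower local background, but was about level in fold. Fold is computed from summit and local background, so these are not separate readings. The summit pileup over the genome-wide background had a median of 15.9 in control and 10.3 with lactate, and the local background over the genome-wide one 2.87 and 2.02. The median log2 ratio of lactate to control was −0.55 for the pileup and −0.49 (−0.50 to −0.49) for the local background. For the fold it was −0.08 (−0.08 to −0.07). The pileup was lower with lactate in 85.9% of the pairs (85.4 to 86.4), the local background in 85.9% (85.4 to 86.4) and the fold in 59.1% (58.4 to 59.8). The width was lower in 66.6%, with medians of 755 and 585 bp.

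Differences of 2-fold were common for the pileup and rare for the fold. The pileup was at least 2-fold lower with lactate in 3050 of the 18390 pairs, 16.6%, and at least 2-fold higher in 29, 0.158%. The local background was at least 2-fold lower in 10.6% and higher in 0.0598%. The fold was at least 2-fold lower in 63 pairs, 0.343%, and higher in 17, 0.0924%. The peaks of a pair were called in libraries of unequal depth, and the part of depth in these ratios was not tested.

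**Figure D3:**
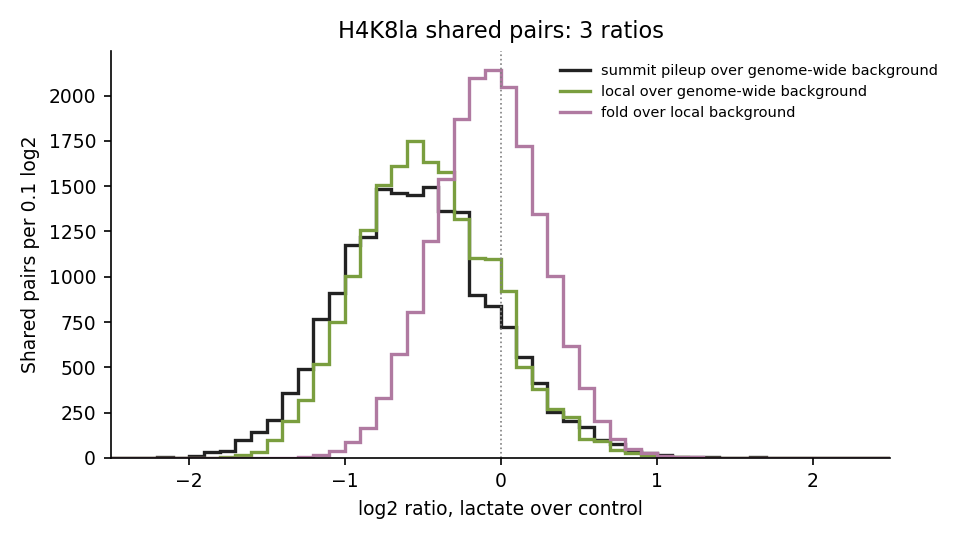
Number of shared H4K8la pairs (vertical axis) per step of 0.1 in the log2 ratio of lactate to control (horizontal axis) for the summit pileup over genome-wide background (black), the local over genome-wide background (green) and the fold over local background (purple). The first 2 distributions are centred below 0 (medians −0.55 and −0.49), and the fold is centred close to 0 (median −0.08).

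The ratios depended on strength. In the 1862 pairs with a mean −log10 q under 3, the median log2 ratio was −0.23 for the pileup and 0.02 (0.01 to 0.03) for the fold. In the 2117 pairs between 10 and 20 it was −0.70 (−0.72 to −0.68) for the pileup, −0.55 (−0.57 to −0.54) for the local background and −0.18 (−0.19 to −0.16) for the fold. Strong pairs thus stood lower with lactate by all of these measures, and the weakest pairs by the pileup and not by the fold. The bins were made on −log10 q of the same pairs, which leaves less room for differences among weak pairs. This dependence on strength is therefore not separate from the binning.

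The 5 strongest pairs, ranked by mean −log10 q, mostly stood higher with lactate. Over all 151 pairs with a mean −log10 q of at least 20 the median log2 ratio of the pileup was −0.66 (−0.74 to −0.55). The leading pair lay on chromosome 1 from 154403659, ending at 154404082 in control and 154404088 with lactate, with summits 1 bp apart. Its fold was 19.8 in control and 20.3 with lactate, and its pileup 103 and 114 times the genome-wide background. On chromosome 12, from 30809565 to 30810323 in control and from 30809506 to 30810398 with lactate, the pileup was 33.4 and 61.4 times the background and the fold 12.7 and 14.0. On chromosome 19, from 22507340 to 22507969 in control and from 22507287 to 22508018 with lactate, the pileup was 31.9 and 51.7 times the background and the fold 12.8 and 13.5. Of the 5 strongest pairs, 4 had the higher pileup over background with lactate. The exception, on chromosome 1 from 209640372 to 209641470 in control, had 121 and 107 times the background. All 5 had a peak in each of the 4 libraries of the other marks, H3K9la and H4K16la.

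Pairs with the largest differences in fold were picked among the 4213 with 1 partner each and a −log10 q of at least 10 in at least 1 library, so their ratios are a description. The highest ratio towards lactate was on chromosome 2 from 5164108 to 5164592, where the lactate summit held 25 fragments (fold 9.90, −log10 q 16.7) and the control summit 17 bp away held 7 (fold 3.45, −log10 q 2.00). Local background was at the genome-wide level in control and 1.05 times that level with lactate. On chromosome 15 from 7464841 to 7465705 the lactate peak held 39 fragments and the control peak inside it 10, with folds of 10.1 and 4.31 and local backgrounds 1.92 and 1.18 times the genome-wide one. In both regions the higher fold with lactate went with a higher summit, and the local background was no lower. On chromosome 18 from 27153775 to 27154163 the fold was 6.44 with lactate and 2.79 in control. The summit was higher with lactate here too, 23 fragments against 13, while the local background was 1.76 and 3.05 times the genome-wide one. The local background was also lower with lactate at chromosome 10, 71189307 to 71189984, and at chromosome 6, 49557414 to 49557960. Their summits held 27 and 20 fragments with lactate and 15 and 11 in control.

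Towards control, the highest ratio was on chromosome 18 from 83779402 to 83780310, with 33 fragments and a fold of 10.4 in control (−log10 q 22.3) and 11 fragments and a fold of 3.57 with lactate (−log10 q 2.54). The next were on chromosome 14 from 81490211 to 81491540 (fold 7.80 in control and 3.30 with lactate), on chromosome 15 from 51428455 to 51429621 (8.35 and 3.58) and on chromosome 19 from 50619695 to 50620703 (6.94 and 2.98). In these 4 regions the control peak was 909 to 1330 bp wide. The lactate summit of the chromosome 18 region lay 32 bp from the start of its peak and 335 bp from the control summit. On chromosome 1 from 188925091 to 188925799 the control peak had 18 fragments (fold 8.20) and the lactate peak overlapping it by 83 bp had 8 (fold 3.53). That was the only one of the 12 pairs picked by fold with no peak in any library of the other marks.

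Strong condition-only peaks were more numerous in control, and wider. Of the control peaks with −log10 q of at least 10, 11.4% (10.5 to 12.4) had no lactate partner, and of the lactate peaks 2.38% (1.70 to 3.32) had no control partner. The 510 control-only peaks were 761 bp wide in the median, with a fold of 5.92 over a local background 3.10 times the genome-wide one. The 33 lactate-only peaks were 527 bp wide, with a fold of 7.14 over 1.57 times the background. Shared peaks of that strength differed between the libraries in the same directions, with widths of 996 bp in control and 787 bp with lactate, folds of 5.92 and 6.27 and local backgrounds 3.70 and 2.61 times the genome-wide one. In each library the strong condition-only peaks were narrower and on a lower local background than the strong shared ones. A lactate peak lay within 5 kb of 96 of the 510, and a control peak within 5 kb of 13 of the 33.

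The control-only peak of highest fold lay on chromosome 2 from 73364903 to 73365370 (31 fragments, fold 13.2, −log10 q 25.8), 60425 bp from a lactate peak and without H3K9la or H4K16la peaks. Second was a peak on chromosome 4 from 76767738 to 76768188 (24 fragments, fold 10.8, −log10 q 18.1), whose nearest lactate peak was 15480 bp away. On chromosome 7 there were 2 such peaks of similar fold, from 92739531 to 92740391 (28 fragments, fold 9.98) and from 94921700 to 94922441 (22 fragments, fold 9.93), and H3K9la and H4K16la peaks were present at both in every library. The lactate-only peak of highest fold lay on chromosome 9 from 41396318 to 41397002 (34 fragments, fold 9.17, −log10 q 20.1), 41618 bp from a control peak. The next lay on chromosome 16 from 20364296 to 20364873 (21 fragments, fold 8.64, −log10 q 12.8). It stood on the genome-wide background, 53573 bp from the nearest control peak, and had no peak in any library of the other marks. The peak on chromosome 7 from 70342379 to 70343030 (19 fragments, fold 7.85, −log10 q 10.8) was likewise without one and 90034 bp from a control peak. On chromosome 9 from 98653238 to 98653892 the lactate-only peak (24 fragments, fold 8.12) was 100681 bp from a control peak.

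The widest control-only peaks stood on raised backgrounds. The first, on chromosome 9 from 60185307 to 60188199, was 2893 bp wide with its summit 203 bp from the start, a fold of 3.71 and a local background 7.01 times the genome-wide one. On chromosome 14 from 41598339 to 41600859 a control-only peak of 2521 bp had a fold of 5.83 and a −log10 q of 15.4. The widest lactate-only peak, on chromosome 4 from 25909105 to 25910800, was 1696 bp wide and held 10 fragments at its summit (fold 4.19). The second widest, on chromosome 7 from 376993 to 378653, was 1661 bp wide with 21 fragments (fold 4.83). The fourth widest, on chromosome X from 150509153 to 150510642, was 1490 bp wide with 16 fragments (fold 6.06) and lay 114348 bp from the nearest control peak. These 3 lactate-only peaks stood on 1.05, 2.30 and 1.17 times the genome-wide background.

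High local background was largely a feature of the control list. In control 26.2% of the peaks (25.8 to 26.5) had a local background at least 3 times the genome-wide one, and with lactate 7.09% (6.85 to 7.33). In numbers these were 16044 and 3032 peaks. Under 1.2 times the genome-wide background there were 16937 control and 13831 lactate peaks, a log2 ratio of −0.29 (−0.32 to −0.26). Between 1.2 and 2 times the lists were about equal, with 7146 control and 7413 lactate peaks from 1.2 to 1.5 and 8961 and 9182 from 1.5 to 2. With lactate, a local background of at least 3 times was found for 1.92% of the lactate-only and 14.1% of the shared peaks. In control it was found for 17.7% of the control-only and 46.2% of the shared peaks. Local background is the peak caller's own value for each library, so these bins do not hold the same regions in both lists.

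Control peaks lay closer together than lactate peaks. The nearest peak of the same list was 9667 bp away in the median in control and 16677 bp with lactate. A neighbour within 5 kb was found for 24.6% (24.2 to 25.0) of the control-only and 9.69% (9.32 to 10.1) of the lactate-only peaks. With the control list cut to the length of the lactate list, the values were 21.3% and 9.77%. That cut kept the control peaks of highest −log10 q and not a random part. It therefore cannot tell how much of the difference comes from list length. Local background went with spacing in both lists: control peaks with a neighbour within 2 kb had a median local background 3.38 times the genome-wide one, and those with none within 20 kb 1.14 times. With lactate these values were 2.19 and 1.30. If the local background was taken from the same library, the fragments of a near neighbour count in it. Spacing and local background are then not separate readings.

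Most condition-only peaks were not near misses. The nearest peak of the other list was 13998 bp away in the median for control-only and 12731 bp for lactate-only peaks, and it lay under 500 bp away for 4.23% and 5.68%. At the far end, 3.21% (3.05 to 3.38) of the control-only and 7.97% (7.64 to 8.32) of the lactate-only peaks were more than 100 kb from any peak of the other list. Lactate-only peaks were thus more often found far from any control peak, although the control list is the longer.

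Condition-only peaks also came in runs, neighbouring peaks in both lists together that all belonged to 1 condition. The longest control-only run held 19 peaks over 357 kb on chromosome 9 from 49742102 to 50098776, with a median fold of 4.21 and a −log10 q of up to 11.4. The strongest of its peaks, from 49921808 to 49922605 (fold 7.05), was 192796 bp from any lactate peak, the farthest among control-only peaks with −log10 q of at least 10. All 4 libraries of H3K9la and H4K16la had a peak over it. The next runs held 18 peaks on chromosome 17 from 75033043 to 75342599, and 16 peaks on chromosome 1 between 188584271 and 188826282. The latter contains the second farthest peak, from 188720188 to 188720854 (fold 5.94), 118179 bp from a lactate peak and also found in all 4 other libraries.

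The lactate-only runs were longer on the map and made of weaker peaks. The first held 16 peaks over 996 kb on chromosome 15 from 46483065 to 47479406, with a median −log10 q of 2.47 on a local background of 1.03 times the genome-wide one in the median. The other two held 11 peaks each, one on chromosome 4 from 99869703 to 102242708 and one on chromosome 12 between 29537109 and 30802706, with a median −log10 q of 2.60. The run on chromosome 12 ends shortly before the strong shared pair at 30809506. Runs of at least 10 peaks numbered 58 of 21865 runs in control and 10 of 16700 with lactate, and control-only peaks are the more numerous class.

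Windows of 100 kb were ranked by another mark, which the split into shared and condition-only peaks did not use. The measure was the number of H3K9la regions in the window, peaks of both H3K9la libraries merged. In the 8234 windows with no H3K9la region there were 3164 lactate and 2396 control H4K8la peaks, a log2 ratio of 0.40 (0.32 to 0.48). With 1 to 2 regions the ratio was −0.13 (−0.18 to −0.07), with 3 to 5 it was −0.50 (−0.54 to −0.47) and with 6 to 9 it was −0.67 (−0.70 to −0.64). In the 1362 windows with 10 or more it was −0.81 (−0.86 to −0.76), from 6.73 control and 3.83 lactate peaks per window. The ratio thus went from above 0 to well below 0 as the window held more H3K9la.

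The direction in windows without the other mark was kept when the windows were ranked by H4K16la, with a log2 ratio of 0.43 and of −0.66 in windows of 10 or more regions. It was kept among H4K8la peaks with −log10 q of at least 5, 113 lactate against 80 control peaks, a ratio of 0.50 (0.09 to 0.91). In windows of 10 or more regions the ratio among those peaks was −1.54 (−1.63 to −1.45). With the H3K9la lactate library alone as the ranking, the ratio over all H4K8la peaks was 0.09 (0.04 to 0.15) in windows without a region. It was −0.70 (−0.75 to −0.65) with 6 to 9 and −0.50 (−0.81 to −0.18) in the 24 windows with 10 or more, so the order did not hold at that end. The H3K9la control library alone gave 0.30 (0.24 to 0.36) in windows without a region and −0.89 (−0.98 to −0.81) with 10 or more. No count in windows was scaled for depth. Across all 26332 windows the numbers of control and lactate peaks had a Pearson r of 0.67 and a Spearman rho of 0.69, a description across windows that share 1 genome and 2 libraries. More control peaks were found in 43.9% of these windows and more lactate peaks in 21.3%. At least 5 control and no lactate peaks were found in 111 windows, and the reverse in 11, with the control list the longer. The fullest of the 11 lay on chromosome 8 from 59500001 to 59600000 and held 6 lactate peaks.

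**Figure D4:**
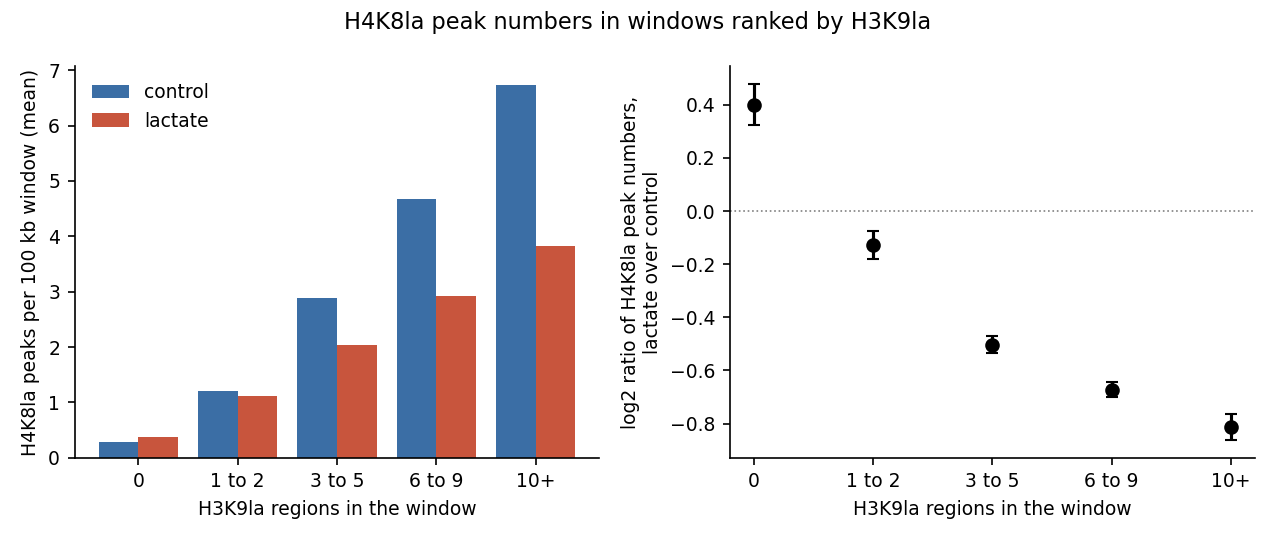
Left, mean number of H4K8la peaks per 100 kb window in control (blue) and with lactate (red); right, log2 ratio of the peak numbers, lactate over control, with 95% counting intervals; both by the number of merged H3K9la regions in the window (horizontal axes). The ratio goes from 0.40 in windows without H3K9la to −0.81 in windows with 10 or more regions.

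Both lists reached every chromosome, and over all peaks chromosome X stood apart from the autosomes. On the 20 autosomes the log2 ratio of lactate-only to control-only peaks ran from −1.09 on chromosome 20 to −0.62 on chromosome 15, and on X it was −0.21 (−0.33 to −0.08), from 987 lactate-only and 1138 control-only peaks. Shared peaks made up 26.4% to 33.4% of the control peaks of an autosome and 38.7% to 51.3% of the lactate peaks. On X they made up 18.7% (16.7 to 20.8) and 21.0% (18.9 to 23.4). Among the autosomes the highest shared shares were both on chromosome 10, which also had the highest density of control peaks, 36.2 per Mb between the first and last peak of the series. Chromosome X had 9.18 control and 8.20 lactate peaks per Mb, below the lowest autosome, chromosome 2, with 19.4 and 14.0.

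Peaks of X were weak in both libraries, with a median −log10 q of 3.06 in control and 2.60 with lactate and a median local background of 1.06 and 1.07 times the genome-wide one. Only 34 control and 11 lactate peaks on X reached −log10 q of 10. Among peaks with −log10 q of at least 5, with partners of the same strength, X held 211 control-only and 60 lactate-only peaks, a log2 ratio of −1.81. The autosomes together had one of −2.25. Neither an interval nor the range of single autosomes was worked out at this strength, so whether X stood apart there is not shown. Chromosome Y held 8 control and 20 lactate peaks. The lactate-only peak from 6023370 to 6023801 had a −log10 q of 10.8 (fold 7.85) and lay 2590050 bp from the nearest control peak. The labels do not give the sex of the animals.

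**Figure D5:**
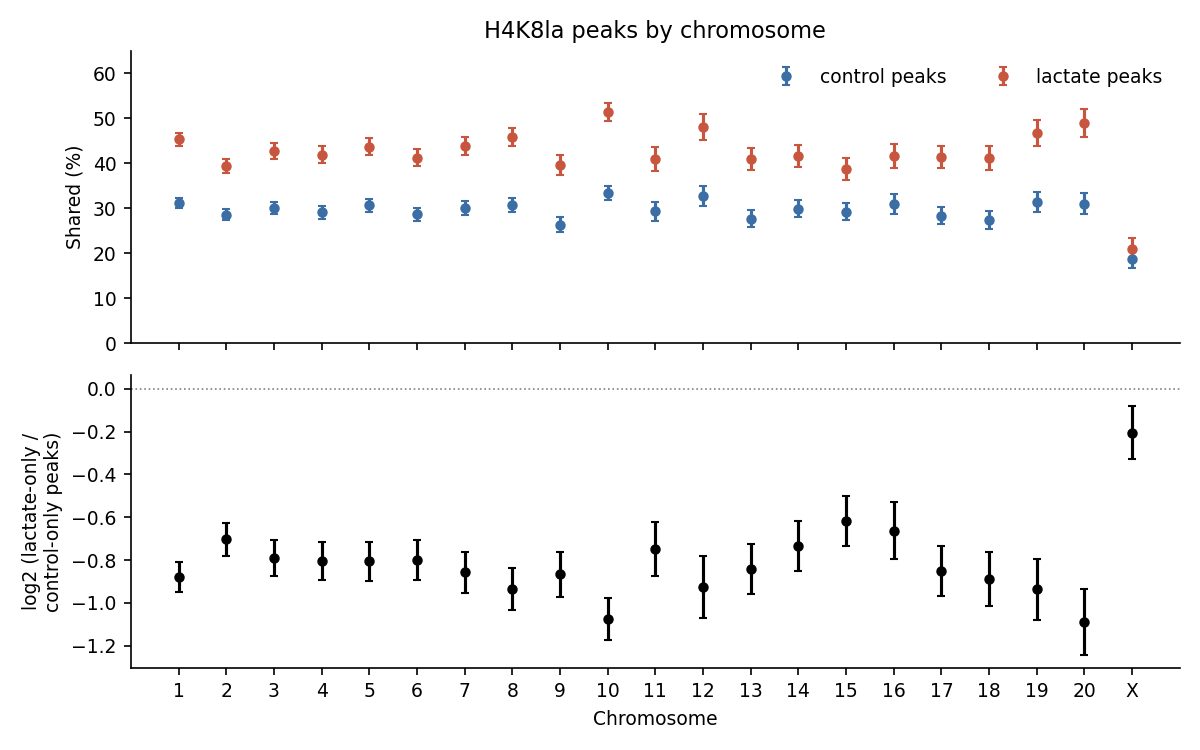
Top, share of H4K8la peaks of each chromosome that are shared, for control (blue) and lactate (red) peaks, with Wilson 95% intervals; bottom, log2 ratio of lactate-only to control-only peaks with 95% counting intervals; chromosome Y, with 28 peaks in all, is not drawn. The autosomes lie between −1.09 and −0.62 in the lower panel, and X lies at −0.21.

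Peaks of the other lactylation marks covered the shared regions more often than the condition-only ones. Of the shared control peaks 91.5% (91.1 to 91.9) overlapped a peak in at least 1 of the 4 H3K9la and H4K16la libraries, of the control-only peaks 44.4% (43.9 to 44.8) and of the lactate-only peaks 33.6% (33.1 to 34.2). All 4 libraries had a peak at 38.3%, 3.50% and 1.68%. Most lactate-only peaks, 66.4%, and most control-only peaks, 55.6%, were therefore seen in no other library of the series. Among stronger peaks the shares were higher and closer: with −log10 q of at least 5, 76.0% of the control-only and 66.1% of the lactate-only peaks were found in at least 1 other library.

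The libraries of the other marks differed in list length, so each was compared across classes. The H3K9la control library had a peak at 27.8% (27.4 to 28.2) of the control-only and 16.7% (16.2 to 17.2) of the lactate-only peaks, and the H3K9la lactate library at 18.0% (17.7 to 18.4) and 12.4% (12.0 to 12.8). The H4K16la control library covered 15.0% (14.7 to 15.3) and 10.3% (9.89 to 10.6), and the H4K16la lactate library 21.1% (20.7 to 21.5) and 17.5% (17.0 to 18.0). Over all peaks, control-only peaks were thus found more often than lactate-only peaks in each of the 4 libraries. Among peaks with −log10 q of at least 5 this held in 3 of them, and the H4K16la lactate library covered 40.6% (39.5 to 41.8) of the control-only and 41.8% (39.2 to 44.4) of the lactate-only peaks. Shared control peaks were covered at 77.4%, 63.5%, 62.5% and 67.0% in the same order.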

How the data were processed

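CUT&Tag was measured in 2 H4K8la libraries of rat tenocytes, and 4 libraries of H3K9la and H4K16la were used as another readout. The submitters' processing notes name build rn7 and the tools MACS2, Bowtie2, cutadapt, FastQC and deepTools, without versions or settings. The labels mention IgG, and its use in calling is not stated. The authors deposited 1 narrowPeak list per library, so peaks were called per library. The deposited columns hold a fold (ratio of summit to local background), −log10 p and −log10 q, a score that is 10 times the −log10 q without decimals, and other columns for position and summit distance. The lowest deposited −log10 q matches a q of 0.05. All are the authors' values of single peaks. They served to describe, rank and filter peaks within each list and to recover depth.

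Positions are counted from 1. The summit pileup is the whole number for which fold = (pileup + 1) / (local background + 1) and the upper Poisson tail both hold within 0.002 of −log10 p. It was found for all 61347 and 42787 peaks; no header states this reading, which was inferred. The lowest local background was also the most frequent in each list (10977 and 7370 peaks) and was taken as genome-wide. Shares have Wilson intervals, medians order-statistic intervals, and log2 ratios of numbers the Wilson interval of the lactate share. With 1 library per group no test was made.

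Peaks were named by rank: the 5 strongest pairs by mean −log10 q; 6 pairs each way by fold ratio; per condition the 6 of highest fold (−log10 q of at least 5), the 4 farthest (at least 10), the 4 widest and the 3 longest runs; and the 3 with most partners. The text gives part of these; the fullest window was picked after its values were seen. The comparison, members and lists were chosen with earlier results of these data known. Alternatives were stricter −log10 q, other overlap rules, equal list lengths, joined peaks, covered bases and scaled depth. For equal lengths the control peaks of highest −log10 q were kept. Window ranking was added after seeing the data. No gene is assigned, because the gene table at hand is of assembly GRCr8. Functions were tested on simulated data. Python 3.11.15, numpy 2.4.6, pandas 2.3.3, scipy 1.17.1 and matplotlib 3.10.9 were used.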

Additional observations from a re-analysis of the deposited data

How the results depend on the processing

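With 1 library per condition no replicate can be left out. No paired analysis was possible because each group has 1 library. The log2 ratio of peak numbers, −0.52 as deposited, stayed below 0: −1.12 at a −log10 q minimum of 5, −1.69 at 10, −0.66 for covered bases, −0.47 with peaks under 1 kb apart joined, −0.72 at −log10 p of at least 4 with the lactate library scaled to the control background, and −0.50 at that threshold unscaled (chosen after seeing the data). Shared shares of control and lactate peaks, 29.6% and 42.6%, were 31.7% and 68.6% with both lists at −log10 q of at least 5, 21.9% and 70.4% at 10, 26.4% and 38.1% with an overlap of 50% of the shorter peak, 27.1% and 38.9% with summits within 500 bp, and 38.9% and 39.2% with equal list lengths. Most pairs joined 1 peak of each list, so lists of equal length have nearly equal shares in any case. No conclusion about the libraries is drawn from that setting.

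The ratio of median widths, shared over condition-only, 1.71 in control and 1.38 with lactate, was 1.78 and 1.40 with the 50% overlap and 1.37 and 1.29 with both lists at −log10 q of at least 5. For fold, 1.18 and 1.12 became 1.197 and 1.13, and 1.10 and 0.994; the last is a reversal and the cause was not tested. The difference in median −log10 q, 3.08 and 1.71, was 3.40 and 1.90, and 3.28 and 1.48 in the same order. The share with a neighbour within 5 kb was 10.5% in control-only and 2.20% in lactate-only peaks at −log10 q of at least 5, 21.3% in control-only peaks with equal lengths (also chosen after seeing the data) and 10.1% in lactate-only peaks with the 50% overlap. The median log2 ratio of fold in pairs, −0.08, was −0.031 with −log10 q of at least 5 in both and −0.55 when read as pileup. Paired summits were 161 bp apart in pairs of 1 partner each. At −log10 q of at least 5 the ratio of lactate-only to control-only peaks was −1.81 on X and −2.25 on autosomes, and, with partners of that strength required (the report counts any partner), other marks were found at 98.9% of shared control, 84.2% of control-only, 98.9% of shared lactate and 79.4% of lactate-only peaks. Of 54 alternative values in all, 6 stayed inside the interval of the reported value, 47 moved outside it without a reversal and 1 reversed. Depth was read from the lists and not from reads.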
